A study of Mus musculus with 4 samples.

Results

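Lineage-restricted microRNAs (miRNAs) are small RNAs that are abundant in 1 cell type and scarce in most others, so that their level reads out which cell types a culture holds. A miRNA guides the Argonaute protein to messenger RNAs through its seed, bases 2 to 8 counted from its 5′ end, and miRNAs with the same seed can share targets. Those described here are the miR-290 to miR-295 cluster and the miR-302 and miR-367 cluster of pluripotent cells, the miR-200 family with miR-203 and miR-205 of epithelia, the muscle miRNAs miR-1, miR-133, miR-206, miR-208 and miR-499, the blood miRNAs miR-142, miR-150, miR-223, miR-144 and miR-451, miR-126 of endothelium and miR-122 of liver. They were taken by name from the array design, without starred (passenger strand) names. The rule itself uses no signal, but the members were chosen with earlier results of these data known. The rule found 39 of the 611 mouse miRNA names, which stand for 33 miRNAs when the 5p and 3p arms are joined, and they were measured by 96 of the 1857 miRNA probes.

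The cells were mouse embryonic fibroblasts (MEFs), connective tissue cells grown from embryos, of strain C57BL/6J. The KO cells were Lats2-/- and lacked a kinase of the Hippo pathway, which restrains proliferation, and the WT cells were Lats2+/+ littermate MEFs. The KO arrays carried RNA of clone #112-C at PDL 70 (KO replicate 1) and PDL 96 (KO replicate 2), and the WT arrays carried RNA of clone #112-K at PDL 68 (WT replicate 1) and PDL 90 (WT replicate 2), where PDL is taken to mean population doubling level. The arrays carry no probe for messenger RNA, so the loss of Lats2 was not checked here. All cells were untreated and were grown in DMEM with 10% serum. With 1 clone per genotype and 2 arrays per group, a difference between genotypes cannot be told apart from a difference between clones, and the p-values measure only the spread between the PDLs of a clone.

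The sequences show how these miRNAs group by seed. The mature sequences are those of RefSeq (GRCm38.p6), and those of 32 of the 39 names, matched through the probes of the array, were used here. Among these 32, 6 seeds were held by more than 1 name. In the first set, capitals mark the seed in pluripotency miRNAs of both clusters, followed by miR-20a, a growth-associated miRNA of the miR-17 family that fibroblasts express.
miR-291a-3p: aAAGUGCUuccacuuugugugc
miR-294-3p: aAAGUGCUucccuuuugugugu
miR-295-3p: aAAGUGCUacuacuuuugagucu
miR-302b-3p: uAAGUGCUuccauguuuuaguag
miR-302d-3p: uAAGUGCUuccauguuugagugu
miR-20a-5p: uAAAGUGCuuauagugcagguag
The first 5 share the seed AAGUGCU, and the letters AAGUGC stand within bases 2 to 8 of 7 of the 32 members, of all 5 miR-17 relatives on the array and of 16 (0.953%) of the 1679 mature mouse names in the table. The second set is the miR-200 family, which splits by 1 letter of the seed into 2 groups.
miR-141-3p: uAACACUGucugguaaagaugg
miR-200a-3p: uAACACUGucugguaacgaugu
miR-200b-3p: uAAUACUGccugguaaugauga
miR-200c-3p: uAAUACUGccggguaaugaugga
miR-429-3p: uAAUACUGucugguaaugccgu
The third set is the pair that lies next to each other on chromosome 1, miR-206 at chr1:20679055-20679076 and miR-133b at chr1:20682834-20682855 on the plus strand (GRCm38.p6), both mature 3p arms, inside the non-coding gene Lincmd1 in the RefSeq annotation.
miR-206-3p: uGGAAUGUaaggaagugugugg
miR-133b-3p: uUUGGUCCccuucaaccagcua

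Of the 39 lineage-restricted names, miR-206 alone was well above background, and it was so on all 4 arrays. A probe passed on an array, and is called well above background there, when the scanner software's flag of that name stood on over 0.5 of the spots left after outliers were removed. The members' share was therefore 2.56% on each array, while 25.5% and 26.4% of all 611 mouse names were well above background on KO replicates 1 and 2, and 20.3% and 21.1% on WT replicates 1 and 2. By lineage, 0 of 16 pluripotent names, 0 of 7 epithelial, 1 of 7 muscle, 0 of 6 blood, 0 of 2 endothelial names and 0 of 1 liver name passed on any array. In RNA of a whole culture, fewer cells of a type and less RNA per cell cannot be told apart. The counts were the same in KO and WT and at the higher and lower PDL of each clone. The 13 starred partners from the members' hairpins gave 0 on every array.

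Lists of other miRNAs on the same arrays are given beside these counts. The lists were written with earlier results of these data known, so they are not independent controls. The fibroblast and mesenchymal list had 8 of 9 names well above background on every array, including miR-21, miR-199a, miR-214 and miR-22. The exception was miR-145, a miRNA of smooth muscle and fibroblasts, at 5.68 and 3.73 signal units in KO and 3.50 and 5.61 in WT. A list of 10 neural and pancreatic miRNAs, such as miR-9, miR-124 and miR-375, had 0 on every array. Of the 5 miR-17 relatives with AAGUGC in their seed, miR-20a, miR-20b, miR-93 and miR-106b were well above background on all 4 arrays and miR-17 on none. The cells thus carried miRNAs with that hexamer, while none of the pluripotent names that hold it passed. Of the 39 viral miRNA names on the array, 1, 1, 1 and 2 passed on KO replicates 1 and 2, WT replicate 1 and WT replicate 2, although no source describes an infection of these cells. The name that passed on all 4 arrays, mcmv-miR-M23-1-5p of murine cytomegalovirus, gave 55.5 and 50.9 units on the KO arrays and 42.2 and 38.5 units on the WT arrays.

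**Figure D1:**
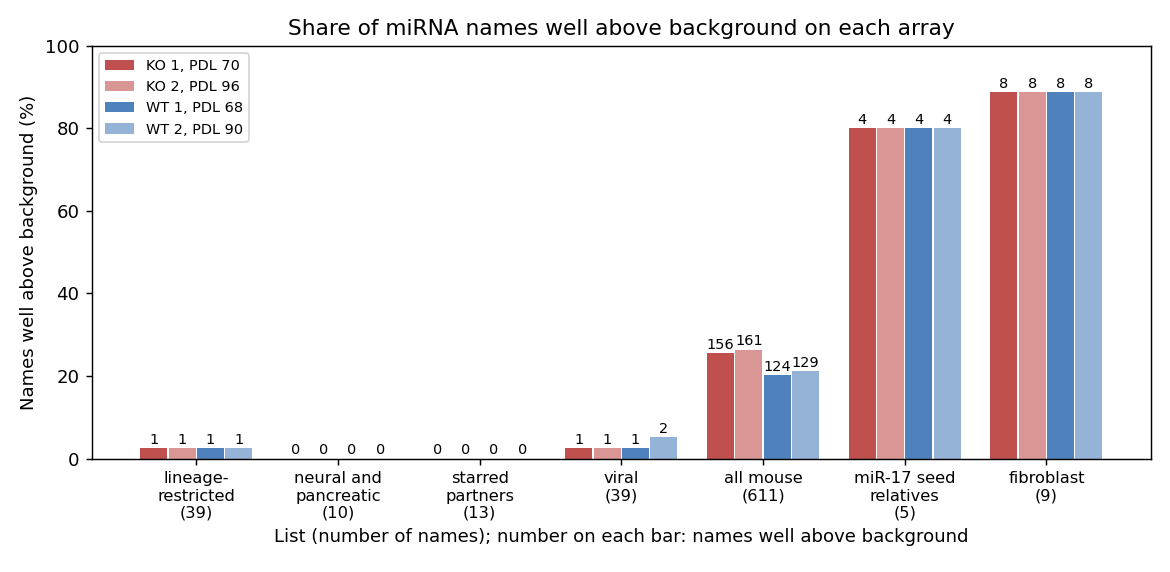
Bars give the percentage of names in each list that were well above background on each array (KO replicates 1 and 2, then WT replicates 1 and 2), with the number of names printed on each bar. The lineage-restricted list stands at 1 of 39 on every array, near the viral list and below the 20.3 to 26.4% of all mouse names, and the fibroblast list at 8 of 9.

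miR-206 belongs to the miR-1 family and is known from skeletal muscle, where the myogenic factor MyoD induces it. Its brighter probe, of 16 bases, gave 32.8 and 38.2 units on KO replicates 1 and 2, against 32.5 and 24.3 units on WT replicates 1 and 2. All 10 spots of this probe were well above background on each array, and the SD over spots was 5.32 and 3.46 units in KO cells, with 2.95 and 3.48 units in WT cells. The lowest of these spots, at 19.5 units on WT replicate 2, lay above the brightest negative control spot of that array, at 12.5 units. KO replicate 2 was the highest array and WT replicate 2 the lowest, and the KO replicate 1 and WT replicate 1 values nearly coincided.

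The array carries a second miR-206 probe that is 1 base shorter, and it did not meet the same criterion. It gave 12.1 and 13.3 units in KO MEFs, against 11.4 and 7.55 units in WT MEFs, with 0 of 10 and 2 of 8 spots well above background in KO and 0 of 10 and 0 of 10 in WT. The probes are shown from the file's sequence column, 5′ to 3′, with the letters that pair with bases 7 to 22 and 8 to 22 of miR-206-3p.
miR-206 probe of 16 bases: ccacacacttccttac
miR-206 probe of 15 bases: ccacacacttcctta
The call of miR-206 as well above background therefore rests on 1 probe. The shorter probe had its lowest array in the same place, WT replicate 2. By the same criterion, 1 of the 39 viral names, mcmv-miR-M23-1-5p, passed on all 4 arrays as well. Its signal was higher than that of miR-206 on every array. Passing the criterion thus does not by itself show that miR-206 was present in the cells.

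**Figure D2:**
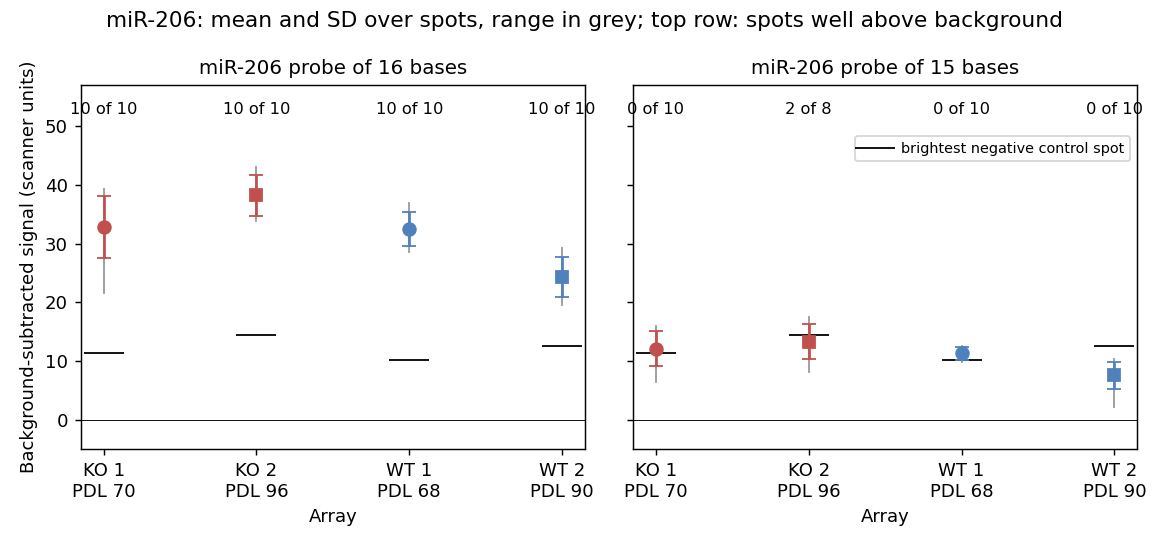
Points and error bars give the mean and SD over spots of the background-subtracted signal (scanner units) of both miR-206 probes on KO replicates 1 and 2 and WT replicates 1 and 2, grey lines the range of spots, and black dashes the brightest negative control spot of the array. The 16-base probe had 10 of 10 spots well above background on every array, and the 15-base probe at most 2 of 8.

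The muscle miRNAs miR-1, miR-133b and miR-133a were not well above background. miR-1 shares the seed of miR-206 and is known from heart and skeletal muscle. With its brighter probe it gave -3.26 and -4.05 units on the KO arrays and -4.37 and -5.19 units on the WT arrays. Over the 16 bases that the miR-206 probe pairs with, the target of the miR-1 probe had the same base at 12 positions. The targets of the miR-133b and miR-133a probes had the same base at 3 positions each. miR-133b, the chromosomal neighbour, gave -2.65 and -3.70 units in KO cells, with -2.58 and 1.28 units in WT cells. miR-133a gave -2.44 and -2.25 units in KO MEFs, against -4.02 and 4.65 units in WT MEFs. None of these muscle miRNAs thus passed on any array, while miR-206 passed on all 4. The heart-associated miRNAs encoded within myosin genes, miR-208a, miR-208b and miR-499, lay between -7.33 and -1.22 units on all 4 arrays, and the highest of them by mean, miR-499, gave -2.33 and -1.22 units on the KO arrays and -2.46 and -2.77 units on the WT arrays.

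Other miRNAs on the array share a stretch of the miR-206 probe's target. Of the other mouse names, miR-574-5p and miR-669n had the longest unbroken match to the 16 target bases, 8 bases, and miR-574-5p was well above background on all 4 arrays. It is printed with miR-206-3p, the shared stretch in capitals (bases 14 to 21 of miR-206-3p).
miR-574-5p: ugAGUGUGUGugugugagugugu
miR-206-3p: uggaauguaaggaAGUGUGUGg
miR-574-5p gave 32.6 and 36.5 units in KO cells, with 26.3 and 25.2 units in WT cells, while miR-669n lay between 10.3 and 12.7 units on the 4 arrays and was not well above background. With a match of 7 bases, miR-669a gave 33.9 and 41.5 units in KO cells and 32.8 and 34.7 units in WT cells. Also at 7 bases, let-7b gave 1020 and 1156 units in KO cells and 471 and 462 units in WT cells. Both were well above background on all 4 arrays, while other names at 7 bases, such as miR-1187 and miR-466k, passed on none. The part of such sequences in the miR-206 signal was not tested.

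The comparison of KO with WT asks whether loss of Lats2 goes with a change in these miRNAs. The main test took miRNAs well above background on both arrays of 1 or more groups, and miR-206 is the only member among them. On the log2 scale after scaling, miR-206 was at 4.98 and 5.12 in KO and 5.08 and 4.76 in WT, and the groups overlapped. The means were 5.05 ± 0.10 in KO and 4.92 ± 0.23 in WT (SD, n = 2 each). The log2 difference was 0.13 ± 0.15 (SE), a fold change of 1.09 with a 95% interval of 0.799 to 1.49, and limma gave an adjusted p of 0.534. Among all 159 miRNAs tested, 93 (58.5%) were called at an adjusted p under 0.05, 70 of them higher and 23 lower in KO. A 2-fold change of miR-206 lies outside the interval under this scaling, but its sign is not settled. The difference was above 0 with the 75th percentile scaling and without scaling, and below 0 with median scaling (-0.28), quantile normalization (-0.70), normexp correction (-0.04) and the software's total signal per miRNA (-0.12).

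The scaling also moved the middle of all tested miRNAs, which had a median log2 difference of 0.32 after the 75th percentile scaling, 0.52 without scaling and -0.09 with median scaling. Relative to that median, miR-206 was at -0.19 under each of these settings. This value could not differ between them, since they multiply all signals of an array by 1 factor. It was -0.83 with quantile normalization. With the 75th percentile scaling it was -0.03 over the miRNAs that passed on all 4 arrays. Without a filter it was 0.13, where the median was 0. The split of calls shifted as well. It was 39 higher and 36 lower with median scaling and 50 higher and 41 lower with quantile normalization. Without scaling it was 92 higher and 15 lower. With the 75th percentile scaling, the 114 miRNAs that passed on all 4 arrays gave 42 higher and 21 lower.

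**Figure D3:**
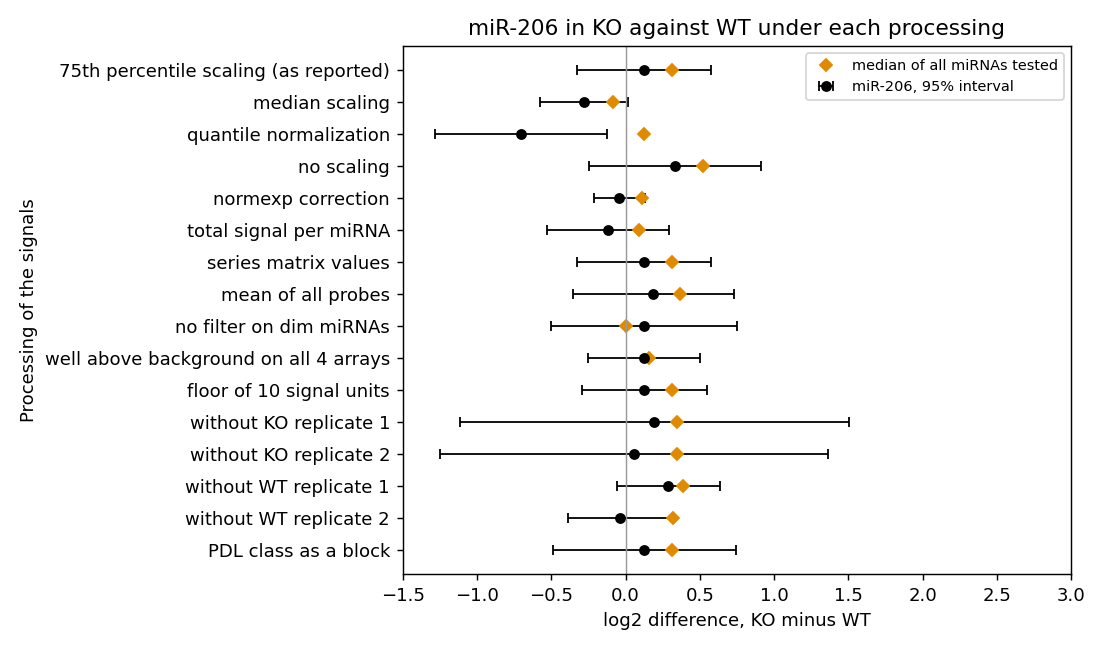
Black points and bars give the log2 difference of miR-206, KO minus WT, with its 95% interval from limma under each processing of the signals, and orange diamonds the median log2 difference of all miRNAs tested in that setting. The difference lies between -0.70 and 0.33, and its interval excludes 0 only with quantile normalization, where the adjusted p was 0.053.

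The comparison of PDLs asks whether these miRNAs moved with time in culture. On the log2 scale, miR-206 at PDL 96 minus PDL 70 was 0.14 in KO, and at PDL 90 minus PDL 68 it was -0.33 in WT, with 1 array at each PDL. With genotype in the model, the log2 difference of the higher against the lower PDL was -0.09 ± 0.17 (SE), with a limma adjusted p of 0.889. limma called 0 (0%) of the 159 tested miRNAs in this comparison, and 9 had an unadjusted p under 0.05. miR-206 was the only member among them. Without a filter, all 39 members were tested and 0 were called. There, miR-142-3p alone of the members had an unadjusted limma p under 0.05 (0.0337, adjusted p 0.967), beside 26 of all 611 names.

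The other 38 members had signals near the array background. On KO replicates 1 and 2 they lay between -5.25 and 7.25 units (median -1.75) and between -5.09 and 5.64 units (median -0.96). On WT replicates 1 and 2 they lay between -4.93 and 2.64 units (median -1.88) and between -7.33 and 11.4 units (median 1.31). For scale, the lowest signal among probes well above background was 15.9 and 13.7 units on the KO arrays and 14.2 and 13.9 units on the WT arrays. The negative control spots had medians of 4.15 and 3.73 units on the KO arrays and 3.33 and 3.78 units on the WT arrays and were never well above background. All 38 members were thus below the dimmest probe that passed on each array. Of the 739, 749, 742 and 731 spots that measured them on the KO arrays and then the WT arrays, 0, 0, 0 and 2 were well above background.

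**Figure D4:**
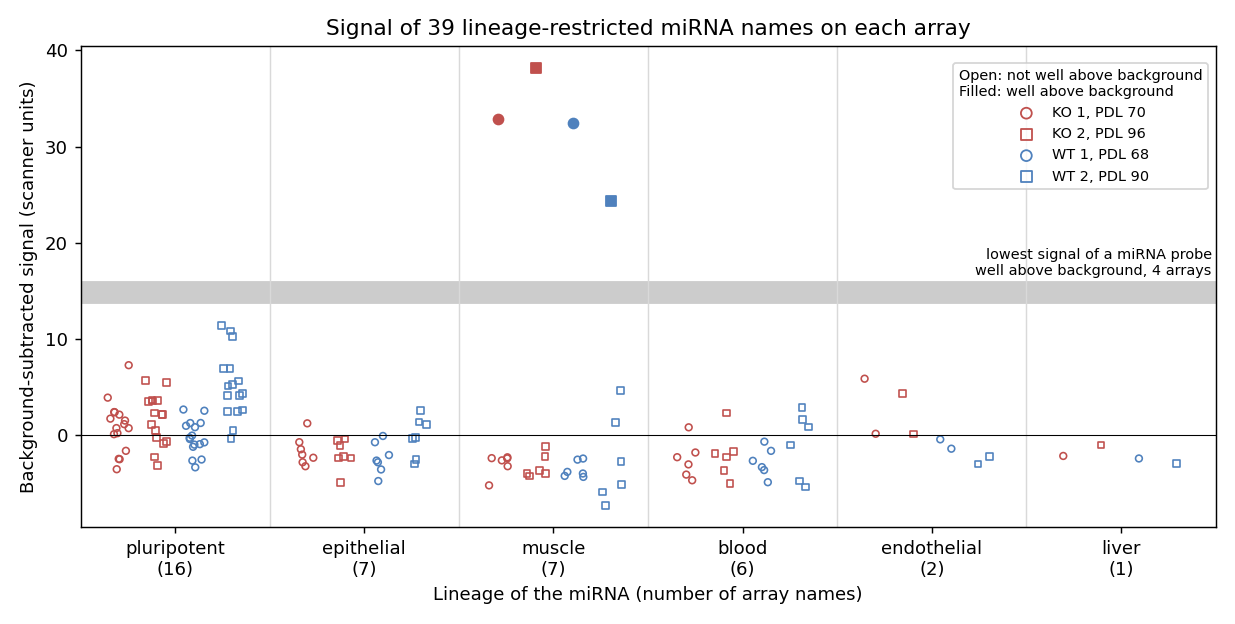
Each point is the background-subtracted signal (scanner units) of 1 of the 39 names on 1 array, with KO arrays left of WT arrays in each lineage. Filled points are well above background, open points are not, and the grey band spans the lowest signal of a probe well above background over the 4 arrays (13.7 to 15.9 units). miR-206 in the muscle column is the only name above the band.

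Among the pluripotent names, the 11 of the miR-290 to miR-295 cluster are known as the most abundant miRNAs of mouse embryonic stem cells, where they promote rapid division. miR-294 had the highest mean signal of the cluster, at 3.88 and 5.64 units in KO cells, with 2.64 and 11.4 units in WT cells, and passed on none of them. Its probe of 20 bases gave 2.44 and 3.62 units in KO MEFs, against 0.98 and 12.6 units in WT MEFs. Its probe of 21 bases gave 0.60 and 1.69 units in KO MEFs, against -0.10 and 7.22 units in WT MEFs. WT replicate 2 was thus the highest array with all 3 probes. miR-290-5p, of the same cluster, was highest on KO replicate 1, at 7.25 and 5.47 units on the KO arrays and 2.51 and 4.27 units on the WT arrays, so that not all members followed that order. Of the cluster of miR-302 and miR-367, known from primed pluripotent cells and used in reprogramming, miR-302b had the highest mean over the 4 arrays, at 2.36 and 3.53 units in KO cells, with 1.23 and 5.09 units in WT cells. Its spots on WT replicate 2 had an SD of 4.13 units over 5 spots. miR-367, which is made from the same transcript but has another seed, gave 0.18 and 0.45 units in KO MEFs, against -1.24 and -0.37 units in WT MEFs.

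WT replicate 2 was the highest array for 14 of the 16 pluripotent names and for 11 of the 22 other members that were not well above background. For all 38 together this made 25 (65.8%), beside 196 (49.4%) of 397 other mouse names that passed on no array and 25 (64.1%) of the 39 viral names. The median of the 16 pluripotent names was 0.91 and 2.12 units on the KO arrays and -0.37 and 4.68 units on the WT arrays. The 2 spots of silent members that were well above background, 1 of 5 for miR-290-3p (probe mean 10.2 units) and 1 of 5 for miR-291b-5p (probe mean 10.8 units), were on this array too.

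The software's own detection flag per miRNA, a looser criterion, was carried by miR-206 on all 4 arrays and by miR-294, miR-290-3p and miR-291b-5p on WT replicate 2. That made 1 and 1 of 39 members in KO and 1 and 4 of 39 in WT, against 29.0% and 29.5% of all mouse names in KO and 23.1% and 27.3% in WT. The loosest flag, for spots that are positive and significant, was carried by 4 and 8 members in KO and 2 and 14 in WT, against 39.9% and 41.1% of mouse names in KO and 31.3% and 44.8% in WT. Pluripotent names made up 2 and 6 of those members in KO and 1 and 11 in WT, and the 11 of 16 on WT replicate 2 (68.8%) exceeded the share of all names there. When any well-above-background spot sufficed, 1 and 1 members in KO and 1 and 3 in WT passed, against 27.3% and 28.3% of mouse names in KO and 21.8% and 25.9% in WT. Under each of these flags the share of all 39 members was below that of all names on the same array.

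The composition of the probes moved with the signal on WT replicate 2. Across the 38 members not well above background, G + C content of the probe and signal had a Pearson's r of 0.02 and -0.004 on the KO arrays, 0.07 on WT replicate 1 and 0.60 on WT replicate 2. The points share their array and, within a cluster, related sequences, and r is given as a description. The 14 members with 50% G + C or more had a median of 4.18 units on WT replicate 2 and the 24 others -0.37 units. Over the 397 other silent mouse names r was 0.20 on WT replicate 2 and between -0.14 and -0.12 on the other 3 arrays. Over all 39 viral names it was -0.06 on WT replicate 2. That set is unlike the others, since it includes the 2 viral names that passed on this array. The pluripotent names had a median G + C of 51.3% and the other silent members 43.7%. Base composition was not separated from lineage, and its part in the higher signals of WT replicate 2 was not tested.

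**Figure D5:**
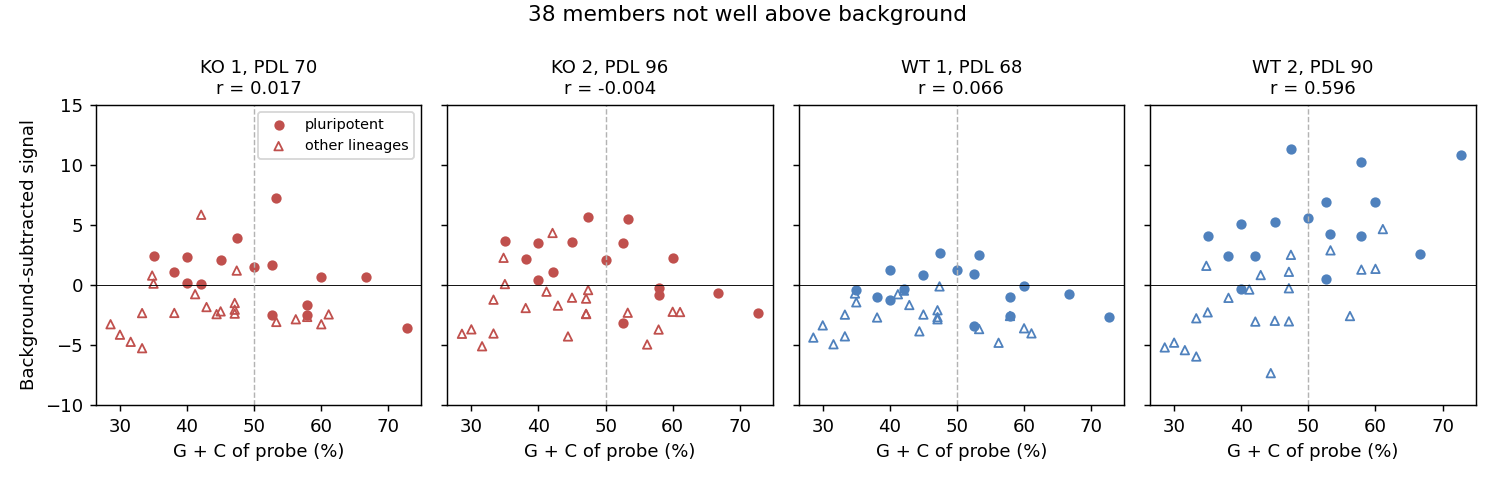
Each point is 1 of the 38 members not well above background, with the G + C content of its probe (%) on the x axis and its background-subtracted signal (scanner units) on the y axis, for KO replicates 1 and 2, WT replicate 1 and WT replicate 2 from left to right. Filled circles are pluripotent names and open triangles the other lineages. The points slope upwards on WT replicate 2 (r = 0.60) and not on the other arrays.

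Below the threshold, the pattern of the 38 members was shared between arrays. Pearson's r across the 38 names was 0.92 between the KO arrays and 0.88 to 0.92 between WT replicate 1 and a KO array, and 0.41 to 0.63 between WT replicate 2 and each other array. Across the 397 other silent mouse names it was 0.94 between the KO arrays and 0.75 between WT replicate 1 and either KO array. Between WT replicate 2 and each other array it was 0.49 to 0.67 there. The same probes, with the same sequences, lie behind every point, so these values describe probes as much as cells. Both KO values lay above both WT values for 8 (21.1%) of the 38 and below them for 3 (7.89%), beside 25.2% and 9.57% of the 397 other silent names.

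Epithelial names stayed low on all arrays. The miR-200 family is known to hold cells in the epithelial state by repressing Zeb1 and Zeb2. Its highest member, miR-429, gave 1.20 and -0.42 units in KO cells, with -0.11 and 2.51 units in WT cells, and miR-203, an epidermal miRNA known to repress p63, gave -0.76 and -0.55 units in KO MEFs, against -0.77 and -0.38 units in WT MEFs. The medians of the 7 epithelial names were -2.05 and -2.23 units on the KO arrays and -2.67 and -0.27 units on the WT arrays.

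Of the blood miRNAs, miR-142-3p, found across white blood cells, had the highest mean over the 4 arrays, at 0.79 and 2.26 units in KO cells, with -0.71 and 1.60 units in WT cells. miR-223 of myeloid cells gave -1.83 and -1.71 units in KO MEFs, against -1.66 and 0.83 units in WT MEFs. miR-451 of red cells, which Argonaute2 rather than Dicer matures, gave -2.32 and -1.91 units on the KO arrays and -2.70 and -1.07 units on the WT arrays. miR-122, the main miRNA of hepatocytes, gave -2.19 and -1.05 units in KO cells, with -2.46 and -2.98 units in WT cells. None of these values came near that of the dimmest passing probe.

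miR-126-3p, the endothelial name with the higher mean over the 4 arrays, had KO signals above its WT signals while staying under the threshold. It comes from an intron of the endothelial gene Egfl7 and promotes vessel growth. Its brighter probe gave 5.85 and 4.33 units in KO MEFs, against -0.47 and -3.04 units in WT MEFs, and its shorter probe 2.54 and 2.59 units on the KO arrays and -2.38 and -2.86 units on the WT arrays. Both KO arrays were above both WT arrays with each probe, and 9 of 10 and 8 of 10 spots of the brighter one carried the positive and significant flag in KO, against 1 of 10 and 0 of 10 in WT. The other arm, miR-126-5p, gave 0.12 and 0.08 units in KO cells, with -1.44 and -2.27 units in WT cells, with its brighter probe. Its other probe gave -1.26 and -2.22 units in KO cells, with -1.43 and -2.39 units in WT cells, so that the groups overlapped there. No array was well above background, and no fold is given. When all names were tested without a filter, limma gave miR-126-3p an unadjusted p of 0.00712 and an adjusted p of 0.0618 in KO against WT. It was the only 1 of the 39 members with an unadjusted p under 0.05, beside 129 of all 611 names. Both its WT values were set to the floor of 1 unit in that fit, so their spread was not measured.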

How the data were processed

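Per the file headers, the authors scanned 4 single-colour Agilent mouse miRNA arrays with Feature Extraction 10.5.1.1, which gave a background-subtracted intensity per spot, in arbitrary units and negative below background, with no normalization between arrays. The deposited files also hold raw and local background intensity, total intensity per miRNA and other values, flags of 0 or 1 for spots and miRNAs. The deposited series matrix intensities differed from these by at most 0.495%. All 4 arrays lay on 1 slide with 1 scan time, so slide and scan could not be batches.

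Outlier spots were left out and the spots of a probe averaged. For each miRNA the brightest probe, by its mean of the 4 arrays, was used. Arrays were scaled to their 75th percentile, taken from the 192 probes that passed everywhere (531 and 562 units in KO, 488 and 458 in WT), floored at 1 unit and put on the log2 scale. The 159 mouse miRNAs well above background on both arrays of 1 or more groups were fitted with limma 3.58.1 in R 4.3.3 (lmFit, eBayes, two-sided), KO against WT without covariates and higher against lower PDL with genotype. P-values were adjusted by Benjamini-Hochberg over all tested miRNAs and called under 0.05. The number of arrays limits the precision. The fit was tested on simulated data.

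Members and lists were chosen with earlier results of these data known. Named are members well above background on 1 or more arrays, the member with the highest mean signal in each subgroup and the comparison lists. Other members, miR-574-5p, miR-669n, miR-669a, let-7b, miR-1187, miR-466k and mcmv-miR-M23-1-5p were named after their values were seen. Sequences are from RefSeq (GRCm38.p6) and the probe column. Alternatives covered flags, scaling, background correction, probes, filters, floor, left-out arrays, a PDL block and the methods' t-test.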

Additional observations from a re-analysis of the deposited data

Results flagged for a closer look

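The log2 signal of miR-206 at the higher minus the lower PDL was 0.14 in KO (PDL 96 against 70) and -0.33 in WT (PDL 90 against 68), so the genotypes moved in opposite directions. Each value sets 1 array against 1 other, and the difference between the genotypes was not tested, since a model with that term has no residual degrees of freedom.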

How the results depend on the processing

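The count of lineage-restricted miRNAs that passed on 1 or more arrays was 1. It became 3 when any well-above-background spot sufficed, 4 with the software's detection flag and 16 with the positive and significant flag. With that last flag KO replicates 1 and 2 had 4 and 8 members and WT replicates 1 and 2 had 2 and 14. On WT replicate 2, 3 members passed by any spot and 4 by the detection flag. Requiring all spots, or taking any probe, left 1 on each array.

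No setting called a member in KO against WT or between PDLs (0 members in each of 61 counts). miR-206 was the only member tested, except in the setting without a filter, which tested all 39. The 61 counts are not separate, since in KO against WT the calls, the calls higher and the calls lower come from the same fits. The log2 difference of miR-206 was above 0 in 11 and below 0 in 5 of 16 settings. These settings are not separate either, so the tally does not weigh the sign. The changes of filter, floor and test and the PDL block cannot move the difference and left it at 0.13. The difference was -0.28 with median scaling, -0.70 with quantile normalization, -0.041 with normexp correction and -0.12 with the total signal. When 1 array was left out, it ranged between -0.037 (without WT replicate 2) and 0.29 (without WT replicate 1). Adjusted p lay between 0.053 and 1. The cause of these changes was not tested. With PDL class as a block (no replicate number pairs samples) the adjusted p was 0.578, and by the methods' t-test 0.624. Among all 159 tested, 93 calls became 39 without KO replicate 1, 37 without KO replicate 2 and 56 by the methods' t-test.

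The 75th percentile over all probes was 2.98 and 2.90 units in KO and -0.10 and 4.66 in WT, and the value under 0 on WT replicate 1 cannot scale an array, and the PDL comparison with 3 arrays has no residual degrees of freedom, so neither was run. Slide and scan blocks did not apply. Signals under about 14 units cannot show whether a member was absent or only dim.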
